A study of Mus musculus with 8 samples.

Results

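Eicosanoids are signalling lipids made from arachidonic acid that phospholipases release from membranes. Lipoxygenases, with ALOX5 and its activating protein, lead to leukotrienes and to hydroxylated fatty acids, while cyclooxygenases (PTGS1 and PTGS2) make prostaglandin H2, which terminal synthases turn into prostaglandins E2 and D2. In a whole mammary gland these enzymes are spread over many cells: leukotriene synthesis is a trait of mast cells, eosinophils and macrophages, and the mouse arachidonate lipoxygenase ALOX15 is best known from resident macrophages and eosinophils. The list followed here holds 10 genes, taken by symbol: Alox5, Alox5ap and Ltc4s for leukotrienes, Alox12 and Alox15 among the other lipoxygenases, the cyclooxygenases Ptgs1 and Ptgs2, and the prostaglandin synthases Ptges, Ptgds and Hpgds. A gene's probe set was to be selected by its mean intensity over all 8 arrays, but 9 of the 10 genes had 1 probe set each, so that no selection was made. Ptgs1 had no probe set paired with it alone and was not analysed here. The 9 measured genes stand among 19938 genes tested.

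The glands came from 5-week-old virgin female mice of mixed C57BL/6 X FVB strain, 4 of genotype MMTV-Cre;Sox9 flox/flox and 4 of genotype MMTV-Cre;Sox9 +/flox. Every mouse carried MMTV-Cre, in which a mammary tumour virus promoter drives the recombinase mainly in epithelial cells, and every mouse carried at least 1 floxed Sox9 allele. The tissue was the lymph-node side of the fourth gland, and each gland's RNA was read on a separate array (Affymetrix Gene 1.0 ST). The tissue identifiers begin with 1 letter in all +/flox mice and with other letters in all flox/flox mice, and whatever those letters mark cannot be told apart from the genotype. Sox9, the targeted gene, read 287 to 356 in flox/flox and 366 to 448 in +/flox glands, a log2 difference of -0.33 ± 0.09 (SE, limma adjusted p = 0.256). Luminal, basal and fat cell markers were measured in every gland, with summed intensities of 10582 to 12806 against 10569 to 12715, of 7696 to 10463 against 7629 to 8835 and of 30242 to 34875 against 31114 to 34954 in flox/flox against +/flox glands. The T and B cell markers summed to 3700 in +/flox replicate 2, against 944 to 1048 in the other 7 glands. Intensities are PLIER values after quantile normalisation, each probe set has its own scale, and levels are therefore compared between glands and not between genes.

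Alox15 stood apart from the other members. Its intensity was 782, 323, 496 and 625 in flox/flox replicates 1 to 4, against 245, 230.1, 258 and 239 in +/flox replicates 1 to 4. The genotypes did not overlap, and the lowest flox/flox gland, replicate 2, lay 1.25-fold above the highest +/flox gland. The flox/flox glands averaged 556 ± 194 and the +/flox glands 243 ± 11.9 (SD, n = 4 each). The log2 difference, flox/flox minus +/flox, was 1.08 ± 0.21 (SE, 95% interval 0.62 to 1.53), a 2.11-fold higher level. Its limma p of 0.000313 became 0.122 after Benjamini-Hochberg adjustment over all genes tested, so Alox15 did not pass the threshold of 0.05. By p it ranked at place 50 of the 19938 genes, and 17 genes, itself included, had a positive difference at least as large.

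Of the 9 measured members 0 passed that threshold, which 0.0401% of all genes did (8 genes). At an unadjusted limma p under 0.05 there were 3 members, Alox15, Alox5 and Ltc4s, all higher in flox/flox glands, against 4.81% of all genes that were higher at that p and 10.3% in either direction. Values without overlap, higher in flox/flox, were seen for 1 member, Alox15, and for 2.74% of all genes. The members were chosen with earlier results of these data known, so these counts beside the shares are no test of the list. The members' log2 differences ran from -0.30 to 1.08, with 5 positive, 4 negative and a median of 0.25, while the median of all genes was -0.01.

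**Figure D1:**
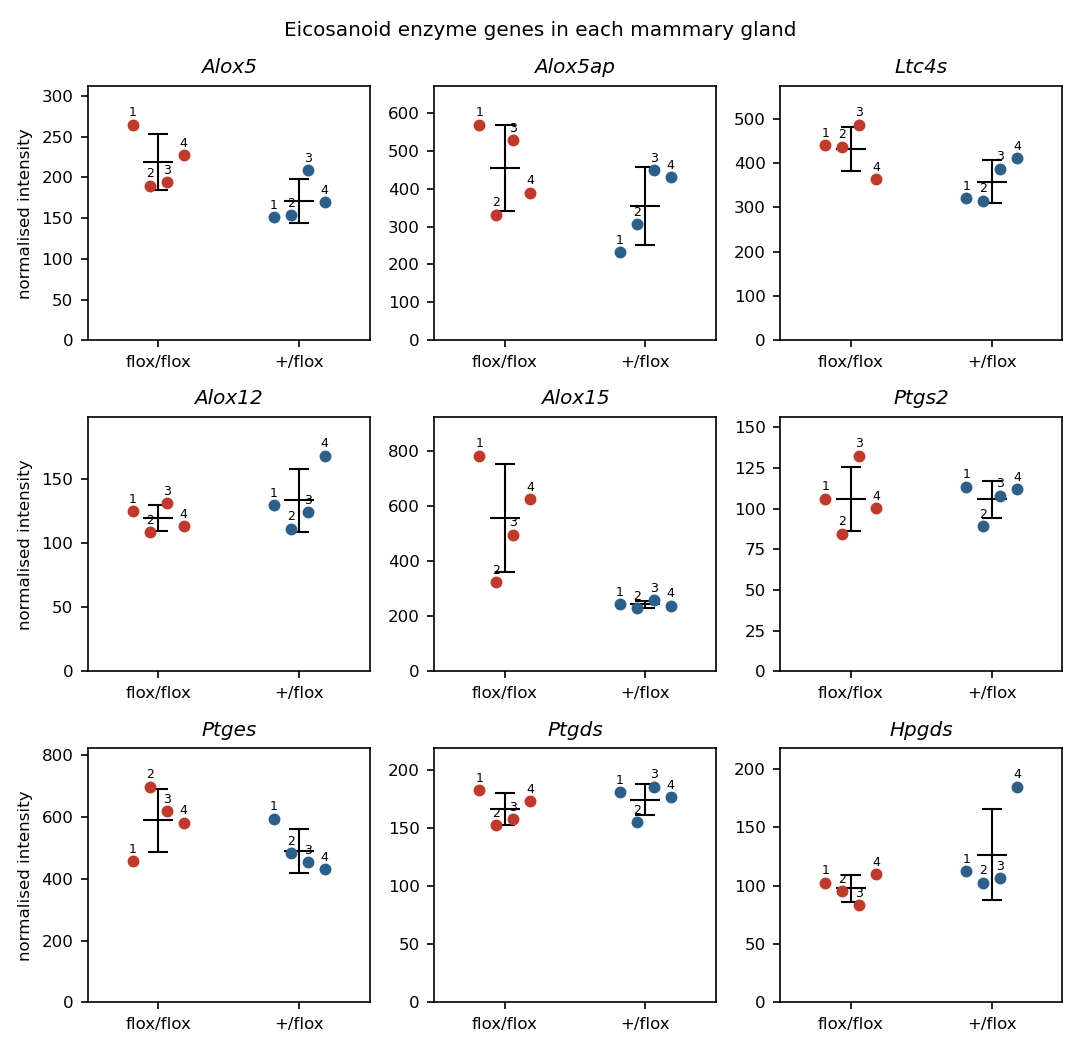
Normalised intensity (linear axis from 0) of the 9 measured eicosanoid enzyme genes in each gland, flox/flox in red and +/flox in blue, with replicate numbers beside the points and the mean ± SD in black (n = 4 each). Alox15 is the panel without overlap, with flox/flox glands from 323 to 782 and +/flox glands from 230.1 to 258.

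The spread of Alox15 differed between the genotypes as well. The highest gland was 2.42 times the lowest among flox/flox and 1.12 times among +/flox glands, with coefficients of variation of 35.0% and 4.90%. Flox/flox replicate 2 was decisive for the call: without it the difference was 1.30 ± 0.13 with a limma adjusted p of 0.00795, whereas without any 1 of the other arrays it was 0.89 to 1.11 with adjusted p between 0.140 and 0.260. Of the 15 marker lists, that gland had the lowest sum of its genotype in 10, among them those of eosinophils, macrophages, neutrophils, dendritic cells and fibroblasts, and the highest sum for adipocytes. In bulk tissue a change in the number of cells that make an RNA and a change in RNA per cell cannot be told apart.

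**Figure D2:**
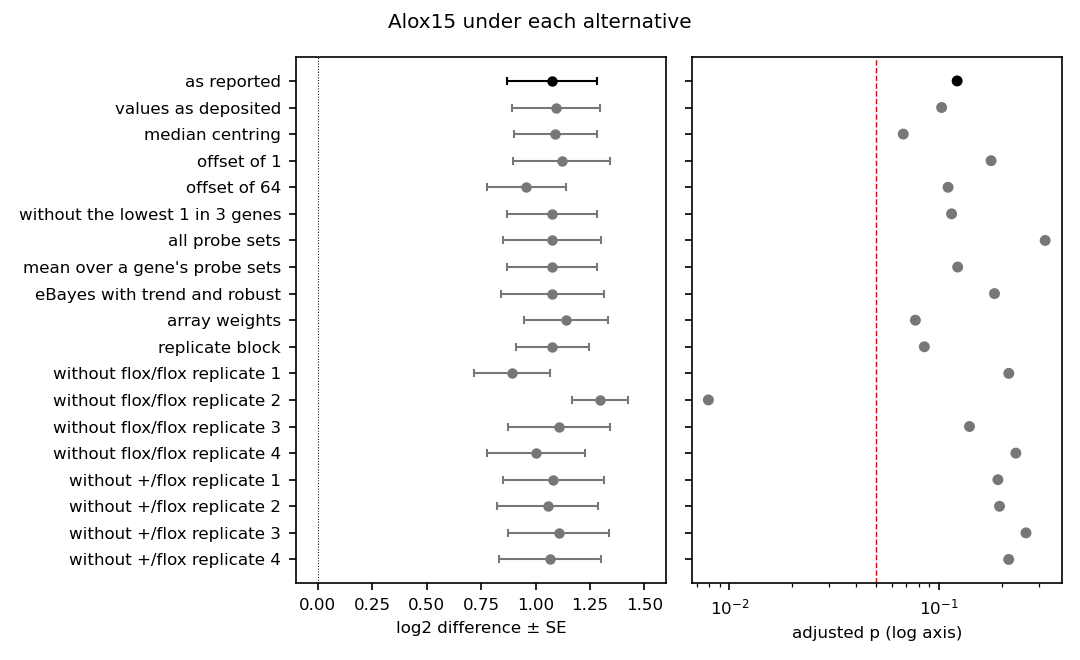
Alox15 with the reported processing (black) and 18 alternatives (grey): the log2 difference with its SE on the left, and limma's adjusted p on a log axis on the right with the threshold of 0.05 as a dashed line. The difference lies between 0.89 and 1.30 throughout, and the adjusted p is under 0.05 in 1 setting, without flox/flox replicate 2.

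Markers of cells that could hold Alox15 are given by gland. The 5 eosinophil markers, all measured, summed to 817, 549, 714 and 714 in flox/flox replicates 1 to 4 and to 603 to 614 in the +/flox glands. Flox/flox replicate 2, lowest in Alox15, was also the flox/flox gland below the +/flox range. Siglecf, the brightest of the 5, weighs most in these sums. In that gland Siglecf, Prg2 and Il5ra lay below the +/flox range, Epx inside it and Ccr3 above it. None of the 5 was listed at 0, which without detection calls does not show that it was expressed. The eotaxin receptor Ccr3 read 191, 82.2, 106 and 129 in flox/flox and 62.7 to 77.6 in +/flox glands, a log2 difference of 0.66 ± 0.18 (limma adjusted p = 0.257). Siglecf, a lectin of eosinophils, read 226 to 354 in flox/flox and 263 to 273 in +/flox glands and overlapped (0.15 ± 0.11). The granule protein genes Epx and Prg2 differed by 0.14 ± 0.08 and -0.17 ± 0.08, and the IL-5 receptor chain Il5ra by 0.08 ± 0.13, each with overlap, so the direction was not shared by all 5.

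General macrophage markers, 9 of 9 measured, summed to 5244 to 7067 in flox/flox and 4756 to 7369 in +/flox glands, so the sums overlapped. Of the 9, 4 had positive and 5 negative log2 differences. Values without overlap were seen for 1 of them, Fcgr1, and for 5.90% of all genes. Fcgr1 read 188 to 206 in flox/flox and 209 to 347 in +/flox glands (-0.37 ± 0.12, limma adjusted p = 0.324). Markers of alternative macrophage activation, 6 of 6 measured, summed to 3927 to 7845 in flox/flox and 1964 to 3856 in +/flox glands. This sum mainly follows the brightest of the 6, Retnla, which made up most of it in every flox/flox gland. Retnla, a secreted resistin-like protein induced by type 2 cytokines, read 5899, 2750.4, 5732 and 4055 in flox/flox and 865, 1139.6, 2177 and 1762 in +/flox glands. Its log2 difference was 1.65 ± 0.30 (limma adjusted p = 0.106). Arg1, the arginase of these cells, read 140, 168, 132 and 222 in flox/flox and 115 to 126 in +/flox glands (0.40 ± 0.13, limma adjusted p = 0.314). Flox/flox replicates 1 and 3, highest in Retnla, were the lowest of that genotype in Arg1. The other 4 markers, Chil3, Clec10a, Mgl2 and Pdcd1lg2, had log2 differences of -0.04 to 0.42 and overlapped. Mesothelial markers summed to 619 to 670.3 against 623 to 655, and those of epidermis and hair to 1192 to 1270.0 against 1279 to 1435. The part of any of these cells in the Alox15 difference was not tested.

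The genes whose pattern over the 8 glands was closest to Alox15 were searched among the 547 other genes whose log2 values spanned more than 1. The top 3 by Pearson's r on the log2 scale, given as a measure of likeness only, were Duox1 (0.98), Gapt (0.97) and Ccl11 (0.96). Duox1 encodes a dual oxidase that makes hydrogen peroxide, and it read 310.5, 199, 251 and 250.1 in flox/flox against 145 to 165 in +/flox glands. Gapt encodes a membrane adaptor of leukocytes and read 256, 145, 173 and 184 in flox/flox against 98.7 to 117 in +/flox glands. Ccl11, the eosinophil attractant eotaxin, read 1102, 654, 812 and 942 in flox/flox against 477 to 670.0 in +/flox glands, with overlap. In each of the 3, as in Alox15, flox/flox replicate 1 was highest and replicate 2 lowest within its genotype. Their selection by r over these same glands favours such a shared order, which is therefore no separate result. Their log2 differences were 0.61 ± 0.11, 0.68 ± 0.14 and 0.64 ± 0.15 (limma adjusted p = 0.106, 0.135 and 0.197).

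**Figure D3:**
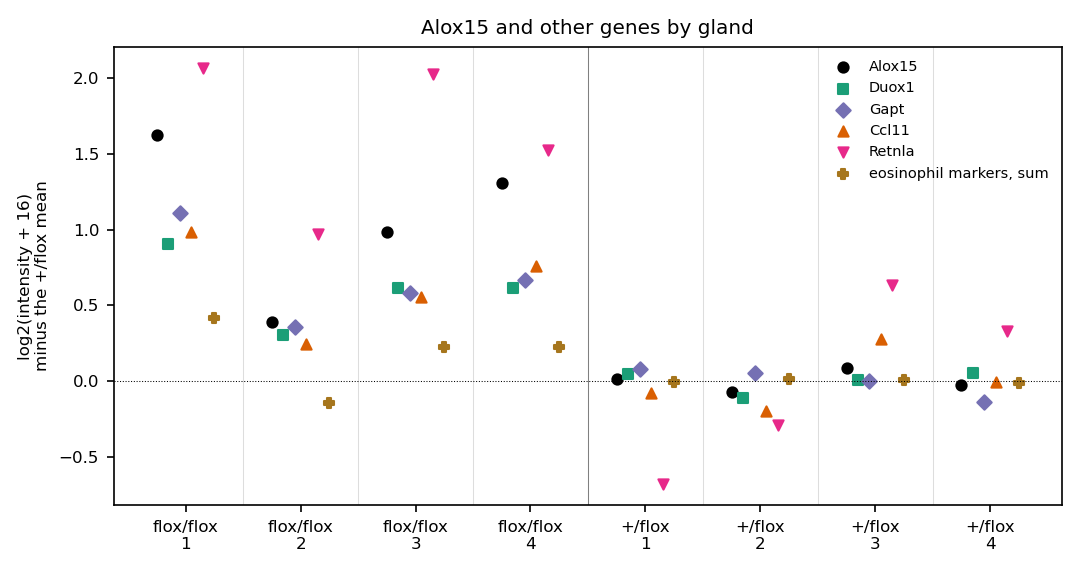
Log2(intensity + 16) in each gland, minus the mean of the +/flox glands, for Alox15, the 3 genes most like it, Retnla and the sum of 5 eosinophil markers. All but the marker sum lie above 0 in each flox/flox gland, and flox/flox replicate 2 is the lowest flox/flox gland for all 6. The 3 genes were chosen for their likeness to Alox15 over these glands, and Retnla after its values were seen.

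On chromosome 11 Alox15 lies in a lipoxygenase cluster, with Alox12e and Alox12 as its nearest tested genes on 1 side. Alox12e, the epidermis-type lipoxygenase, read 174, 108, 121 and 143 in flox/flox and 101, 117, 107 and 113 in +/flox glands. The genotypes overlapped, and the log2 difference was 0.26 ± 0.12 (SE, limma adjusted p = 0.489). Its highest and lowest flox/flox glands, replicates 1 and 2, were those of Alox15.

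Alox12, the platelet-type lipoxygenase, read 125, 109, 131 and 113 in flox/flox and 129, 111, 124 and 168 in +/flox glands. Platelet markers, 5 of 6 measured, summed to 989 to 1208 in flox/flox and 1099 to 1418 in +/flox glands, and their part was not tested. The Alox12 values overlapped with a log2 difference of -0.13 ± 0.11 (95% interval -0.37 to 0.11, limma adjusted p = 0.733). Without +/flox replicate 4, the high gland, the difference was -0.02. Over the 6 nearest tested neighbours of Alox15, 3 on either side, differences ran from -0.13 for Alox12 to 0.26 for Alox12e, and 0 of the 6 passed the threshold by limma. The lipoxygenases Alox8, Alox12b and Aloxe3 differed by -0.07, 0.03 and 0.00 on the log2 scale.

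The 3 leukotriene genes were each higher on average in flox/flox glands, with overlap between the genotypes. Alox5, the enzyme that starts leukotriene synthesis, read 265, 189.9, 195 and 228 in flox/flox and 151, 154, 209 and 169.7 in +/flox glands. The +/flox replicate 3 lay above flox/flox replicates 2 and 3. The mean of the flox/flox glands was 219 ± 34.6 and that of the +/flox glands 171 ± 26.9 (SD, n = 4 each). Alox5 thus differed by 0.33 ± 0.12 on the log2 scale (SE, 95% interval 0.06 to 0.60, limma adjusted p = 0.383). As for Alox15, flox/flox replicate 1 was highest and replicate 2 lowest within that genotype, and +/flox replicate 3 was the highest +/flox gland.

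Ltc4s joins glutathione to the leukotriene precursor and so makes leukotriene C4. It read 440.2, 437, 486 and 364 in flox/flox and 320.3, 315, 387 and 411 in +/flox glands. The overlap came from flox/flox replicate 4, which lay below +/flox replicates 3 and 4. The flox/flox mean was 432 ± 50.5 and the +/flox mean 358 ± 48.2 (SD, n = 4 each), with a log2 difference of 0.26 ± 0.11 (SE, 95% interval 0.02 to 0.50, limma adjusted p = 0.457).

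Alox5ap, which presents arachidonic acid to ALOX5, read 568, 331, 528 and 389 in flox/flox and 232, 305, 448 and 431 in +/flox glands. It varied widely within both genotypes, by 1.71 times among flox/flox and 1.93 times among +/flox glands. The log2 difference was 0.36 ± 0.22 (SE, 95% interval -0.12 to 0.83, limma adjusted p = 0.610), and it was 0.18 without +/flox replicate 1, the lowest gland. The genes most like Alox5ap over the 8 glands were Itgam, an integrin chain of myeloid cells (r = 0.98), the monocyte attractant Ccl8 (0.96) and Fcna, a ficolin of macrophages (0.96). Itgam read 556, 285, 470.0 and 383 in flox/flox and 204, 259, 385 and 349 in +/flox glands, and its log2 difference of 0.48 ± 0.22 did not pass (limma adjusted p = 0.487). Those of Ccl8 and Fcna were 0.56 ± 0.28 and 0.22 ± 0.22, and without +/flox replicate 1 the difference of Fcna was -8.7e-05. Macrophage markers, summed above, had the same lowest gland of all 8 as Alox5ap, +/flox replicate 1 at 4756. That gland was also the lowest of all 8 for mast cell, alternative macrophage activation and T and B cell markers. Within its genotype it had the lowest sum in 7 of the 15 marker lists.

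Mast cell markers are given beside these genes, since mast cells make leukotriene C4 in quantity. Of 11 markers, all measured, 10 had positive log2 differences with a list median of 0.33, 6 had an unadjusted limma p under 0.05, all higher, and 0 passed after adjustment. Over all genes 9450 of 19938 had positive differences and 4.81% were higher at that p. Fcer1a, Tpsb2 and Mrgprb1, 3 of the 11, were higher without overlap, as were 2.74% of all genes. Fcer1a read 64.7 to 117 in flox/flox and 46.9 to 50.5 in +/flox glands (0.69 ± 0.13, limma adjusted p = 0.106). Tpsb2 and Mrgprb1 differed by 0.41 ± 0.11 and 0.48 ± 0.11, and the negative marker was Tpsab1 (-0.06 ± 0.11). The sum of the 11 was 2667 to 3471 in flox/flox and 2499 to 2958 in +/flox glands. Kit, the brightest of them, weighs most in that sum. It read 740 to 1036 in flox/flox and 757 to 864 in +/flox glands (0.05 ± 0.10, limma adjusted p = 0.914). The sum and Alox5 shared their highest flox/flox gland, replicate 1, and both their highest and lowest +/flox glands, replicates 3 and 1. Their lowest flox/flox glands differed, replicate 3 for the sum (2667) and replicate 2 for Alox5 (189.9). The sums of the general and of the alternative macrophage markers had the same highest and lowest glands as Alox5 in both genotypes. Ltc4s was highest in flox/flox replicate 3, the gland with the lowest flox/flox mast cell sum. None of the 11 was listed at 0. Their part in the differences of Alox5 and Ltc4s was not tested.

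The promoters of Alox5 and Ltc4s are printed because these were the members, after Alox15, with an unadjusted p under 0.05. The sequences are the 250 bases before the annotated start, from RefSeq on build GRCm38.p6 and both on the minus strand, at chr6:116461179-116461428 for Alox5 and at chr11:50238533-50238782 for Ltc4s. Windows were found for 8 of the 10 genes, those of Alox15 and Alox5ap not among them. Capitals mark GC boxes (GGGCGG on either strand), the motif bound by SP1.
Alox5: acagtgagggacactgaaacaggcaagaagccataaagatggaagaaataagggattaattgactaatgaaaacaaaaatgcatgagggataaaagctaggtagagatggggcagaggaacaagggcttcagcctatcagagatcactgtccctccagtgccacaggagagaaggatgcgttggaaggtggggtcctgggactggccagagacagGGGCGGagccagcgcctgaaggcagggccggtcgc
Ltc4s: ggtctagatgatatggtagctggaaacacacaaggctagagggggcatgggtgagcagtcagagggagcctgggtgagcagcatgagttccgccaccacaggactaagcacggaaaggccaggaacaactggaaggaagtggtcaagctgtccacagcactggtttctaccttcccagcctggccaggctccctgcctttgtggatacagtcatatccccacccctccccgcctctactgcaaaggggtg
Alox5 held 1 GC box in this window and Ltc4s 0, and 32.7% of the 32841 windows searched held at least 1. A SOX-type motif (AACAAAG or AACAATG) was in 1 of the 8 windows, that of Ptges, and in 8.12% of all. A STAT6-type motif (TTC and GAA with 4 bases between) was also in that of Ptges alone, where it overlaps the SOX-type match, and in 5.85% of all windows. Ptges also held 2 GC boxes, as did Alox12, and Ptgs2 held 1. Both strands were searched for each motif, and a match describes letters in these windows only.

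Of the cyclooxygenases Ptgs2, the inducible form, was measured. It read 106, 84.7, 132 and 100.2 in flox/flox and 114, 89.0, 108 and 112 in +/flox glands. The +/flox range lay inside the flox/flox range. The log2 difference was -0.01 ± 0.12 (SE, limma adjusted p = 0.993), and its 95% interval of -0.26 to 0.25 covers changes from 16.6% lower to 18.8% higher. Its sign turned when any 1 of 5 arrays was left out.

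Among the prostaglandin synthases, Ptges, the inducible synthase of prostaglandin E2, read 457, 698, 619.9 and 582 in flox/flox and 595, 483, 454 and 431 in +/flox glands. In each genotype 1 gland, replicate 1, went against the rest, low in flox/flox and high in +/flox. The flox/flox mean was 589 ± 101 and the +/flox mean 491 ± 72.6 (SD, n = 4 each), with a log2 difference of 0.25 ± 0.13 (SE, 95% interval -0.04 to 0.54, limma adjusted p = 0.551). Without flox/flox replicate 1 the difference was 0.36, and without flox/flox replicate 2 it was 0.17. The flox/flox order of Ptges, lowest in replicate 1 and highest in replicate 2, was the reverse of that of Alox15 and Alox5 at both ends.

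Prostaglandin D2 can be made by a lipocalin-type synthase, Ptgds, and by a haematopoietic one, Hpgds. Ptgds read 183, 153, 158 and 173 in flox/flox and 181, 155, 186 and 177 in +/flox glands. It was the steadiest member, with a highest gland 1.22 times the lowest over all 8, and its log2 difference was -0.06 ± 0.08 (SE, 95% interval -0.24 to 0.11, limma adjusted p = 0.832).

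Hpgds read 102, 95.1, 82.9 and 109.9 in flox/flox and 112, 102, 106 and 184 in +/flox glands. The +/flox replicate 4 lay far above the other 7 glands, which ran from 82.9 to 112. The log2 difference was -0.30 ± 0.15 (SE, 95% interval -0.64 to 0.05, limma adjusted p = 0.551), and it was -0.12 without that gland. The closest genes over the 8 glands were Pck1, an enzyme of glycerol and glucose synthesis, and Zyg11a and Hcar2, each with r of 0.87 to 0.88. Hcar2, a receptor of adipocytes for nicotinic acid, and Pck1 were also highest in +/flox replicate 4, at 495 and 9305, against 215 to 359 and 4519 to 7288 in the other glands. Their selection by r with Hpgds favours genes that are high in that gland. Adipocyte markers summed to 34954 in that gland and to 34875 in flox/flox replicate 2, where Hpgds read 95.1. The latter sum includes Lep at 1982, against 468 to 846 in the other glands. Adipoq read 6398 in +/flox replicate 4 and 5780 in flox/flox replicate 2. The part of adipocytes in the Hpgds values was not tested.

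The rest of the pathway was followed with 61 further genes, of which 57 were measured: phospholipases, other lipoxygenases, other synthases and hydrolases, breakdown and transport, and receptors. None of the 57 passed the limma threshold after adjustment, in which 0 were higher and 0 lower. At an unadjusted p under 0.05 there were 7 higher (background 4.81%) and 2 lower (background 5.46%), and 3 had values without overlap in either direction (background 5.90%). The log2 differences ran from -0.38 to 0.49 with a median of 0.02, near the -0.01 of all genes.

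Enzymes next to leukotriene C4 and to thromboxane were among the 7. Dpep1, a dipeptidase that trims leukotriene D4, read 1009, 809, 779 and 675 in flox/flox and 429.7, 590.4, 553 and 770.2 in +/flox glands, a log2 difference of 0.49 ± 0.16 (SE, limma adjusted p = 0.330). The genotypes overlapped through +/flox replicate 4. The related Dpep2 differed by 0.17 ± 0.07 and the thromboxane synthase Tbxas1 by 0.33 ± 0.13, both with overlap. Dpep2 has 2 probe sets, and with their mean in place of the brighter it differed by 0.27 ± 0.07 (limma adjusted p = 0.213). Abcc1, a pump that exports leukotriene C4, read 509, 555, 486 and 499 in flox/flox and 452, 441, 435 and 438 in +/flox glands. It did not overlap, and its log2 difference was 0.21 ± 0.06 (SE, limma adjusted p = 0.294).

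The prostaglandin reductase Ptgr2 also did not overlap, at 822 to 857 in flox/flox and 685 to 778 in +/flox glands (0.18 ± 0.06, limma adjusted p = 0.338). Hpgd, the main enzyme of prostaglandin breakdown, differed by -0.02. Among phospholipases Pla2g7, which degrades platelet-activating factor, read 582 to 979.5 in flox/flox and 496 to 748 in +/flox glands (0.37 ± 0.16, limma adjusted p = 0.467), and the secreted Pla2g2d differed by 0.37 ± 0.17. The secreted Pla2g12a was among the lower genes (-0.19 ± 0.08), and its relative Pla2g12b, without overlap, was at -0.14 ± 0.07. Pla2g4a, the cytosolic enzyme that releases arachidonic acid, differed by -0.04.

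Of 9 prostanoid receptors 1 had an unadjusted p under 0.05, the prostaglandin F receptor Ptgfr, lower in flox/flox glands. It read 86.4, 133, 92.9 and 87.9 in flox/flox and 112, 115, 151 and 162 in +/flox glands, with overlap through flox/flox replicate 2, and a log2 difference of -0.38 ± 0.14 (SE, limma adjusted p = 0.388). The other 8 receptors, those for prostaglandins D2 and E2 included, had differences between -0.14 and 0.11. Of 9 leukotriene and lipoxin receptors 7 were measured, with differences from -0.18 to 0.12 and the smallest p for Gpr18 (-0.11 ± 0.08, limma adjusted p = 0.692).

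**Figure D4:**
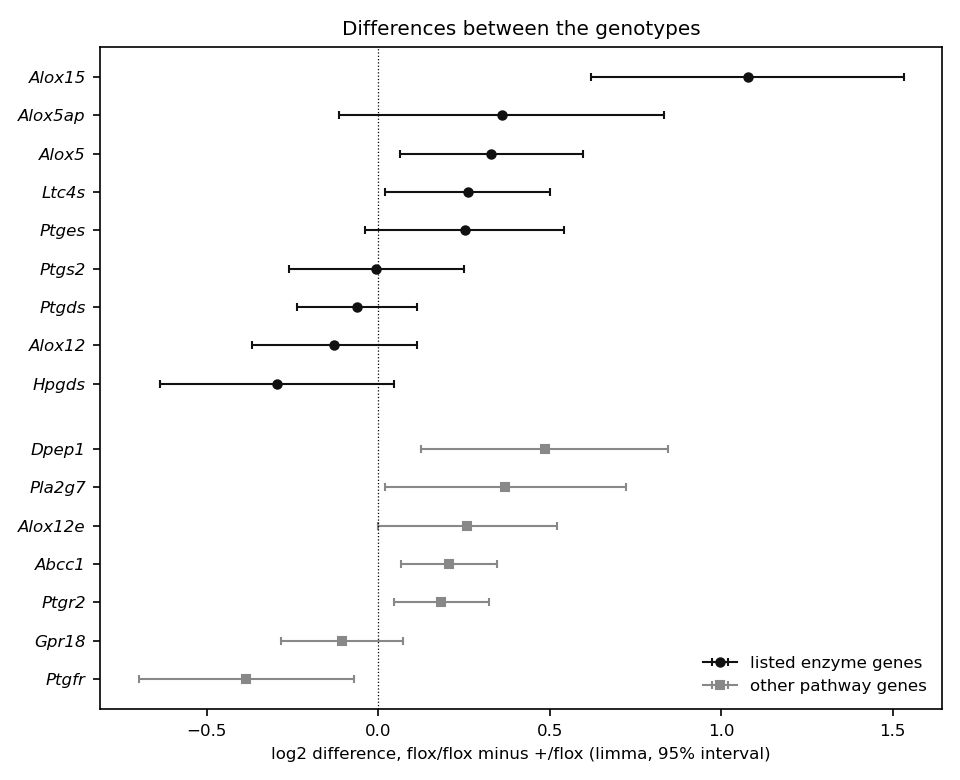
Log2 differences, flox/flox minus +/flox, with limma's 95% interval for the 9 measured enzyme genes (black circles) and for 7 other pathway genes (grey squares). The interval of Alox15, 0.62 to 1.53, lies farthest from 0, while Ptgs2, Ptgds, Alox12 and Hpgds, like Alox5ap and Ptges, have intervals that include 0.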

How the data were processed

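The deposited intensity values, which are linear, came from PLIER in Expression Console 1.0 according to the submitters' processing notes, whereas background correction and scaling between arrays are not given there. The table has 35557 probe sets, no detection calls and 0 columns without a sample. Of these, 21789 had 1 gene symbol in the platform annotation, and the brightest on average stood for each of 19938 genes. Here all probe sets were offset by 16, taken to log2 and quantile normalised; printed intensities have the offset removed. The test between genotypes (4 against 4) was limma's moderated statistic (version 3.58.1, R 4.3.3), with Benjamini-Hochberg adjustment over all genes at a threshold of 0.05. The code was tested on simulated data. Labels do not say that equal replicate numbers mark litters or days, and pairs deviated with correlations of -0.20 to 0.21, so numbers were not paired. No 2 arrays were identical (median absolute log2 difference at least 0.12).

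The members and lists were chosen with earlier results of these data known. The text names Sox9, all members, from each pathway list the gene with the smallest p, and those without overlap at p under 0.05. It also names genes behind counts of 5 or fewer. Added to these are the 3 genes most like a member that spanned more than 1 on the log2 scale. Retnla, Arg1, Ccr3, Siglecf, Kit, Lep and Adipoq were picked from the marker lists after their values were seen. Hpgd, Pla2g4a, Alox8, Alox12b and Aloxe3 were picked in the same way from the pathway list. Older symbols were matched through the RefSeq table. Alternatives were other normalisations, offsets of 1 and 64, a filter, other probe set rules, other variance models, array weights, the replicate number as a block and each array left out.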

Additional observations from a re-analysis of the deposited data

Results flagged for a closer look

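Among 70 genotype groups of 4 glands, from 35 of the named genes, 3 held a gland whose gap to the nearest other gland was unusually large for its group by Dixon's ratio, and chance alone gives about 1 in 20 groups. Hpgds read 184 in +/flox replicate 4, against 102 to 112 in the other +/flox glands. Zyg11a read 242 in the same gland, against 108 to 125 in the other +/flox glands. It was named for its likeness to Hpgds over these glands, so its flag is not independent of that of Hpgds. Ptgfr read 133 in flox/flox replicate 2, against 86.4 to 92.9 in the other flox/flox glands.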

How the results depend on the processing

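For the 9 measured enzyme genes 153 of 160 values over 18 alternatives kept their direction and their side of the threshold. Alox15 passed when flox/flox replicate 2 was left out, and the count of members called then was 1, against 0 without each of the other arrays and in every other alternative; the count of other pathway genes called was 0 throughout. With the unmoderated statistic 1 member and 5 pathway genes had an unadjusted p under 0.05, against 3 and 9 by limma. Ptgs2 turned sign with array weights (0.0198) and, with an array left out, ran from -0.106 to 0.0810. Fcna ran from -8.7e-05 to 0.342 with an array left out, the negative end without +/flox replicate 1. Over all genes 8 passed, but 18 with median centring, 4 and 19 with offsets of 1 and 64, 3 without the lowest 1 in 3 genes, 1 with all probe sets, 17 with trend and robust options, 0 with the unmoderated statistic (1898 at an unadjusted p under 0.05) and 2 to 19 with an array left out. With the replicate number as a block 8 genes passed, and Alox15 had an adjusted p of 0.0852; the samples share only a number. Hpgds, Ptgs2, Alox12e, Ptgfr, Ccr3 and Zyg11a were removed by the filter on low genes. The number of arrays limits the precision, and without detection calls values near background cannot be recognised.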
